A study of Papio anubis with 25 samples.

Results

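The transcripts described here are those of 9 protein-coding genes of the mitochondrial genome, COX1, COX2, COX3, CYTB, ND1, ND2, ND4, ND5 and ATP6, in salivary glands, pancreas and liver of the olive baboon (Papio anubis). The 9 genes were taken by symbol from the table of 21287 genes, and all 9 were present. They are 9 of the 13 protein-coding genes that the RefSeq gene table places on the baboon mitochondrial genome. The other 4, ATP8, ND3, ND4L and ND6, were also in the table and are given only for comparison. The tissues were flash frozen and came from the same 5 baboons, 4 female and 1 male (baboon 5), with 1 library for each of parotid, submandibular gland, sublingual gland, liver and pancreas per animal and 25 libraries in all. The glands were left-side glands, no age, treatment or genetic change is given in the labels, and with 1 male no difference between the sexes could be tested. Values are TPM, a transcript abundance relative to the library total and corrected for transcript length, so every level and share below is relative to all other genes of the same library.

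The mitochondrial genome is a small circular DNA present in many copies per cell. It encodes the ribosomal and transfer RNAs of the organelle and a small set of core proteins of the respiratory chain, which moves electrons to oxygen and uses the released energy to make ATP. ND1, ND2, ND4 and ND5 are membrane subunits of complex I (NADH dehydrogenase), CYTB is the cytochrome b of complex III, COX1, COX2 and COX3 form the catalytic core of complex IV (cytochrome c oxidase), and ATP6 is part of the proton channel of complex V (ATP synthase). Apart from ND6, all of them are read from the same DNA strand as long transcripts that are cut into single messages, so their levels also depend on processing and stability. Cells with a high demand for ATP, such as hepatocytes, muscle fibres and the striated duct cells of salivary glands, are rich in mitochondria. Nuclear copies of mitochondrial sequence exist in primate genomes, and ATP8 and ATP6, and ND4L and ND4, overlap, so the quantification can divide reads between such sequences and the level of a single gene carries that uncertainty.

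The 9 genes together took from 1.35% to 28.1% of all TPM over the 25 libraries, a range of 20.8-fold. The share was highest in liver, at 19.4% ± 5.79 (SD, n = 5), with values of 20.8%, 13.8%, 14.4%, 19.8% and 28.1% in baboons 1 to 5. In sublingual gland it was 14.6% ± 9.40 (n = 5), with 4.96%, 25.2%, 18.5%, 20.02% and 4.40%. The sublingual libraries of baboons 2, 3 and 4 were therefore at the level of liver, that of baboon 1 was within the range of pancreas, and that of baboon 5 was below it.

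In pancreas the share was 5.86% ± 1.29 (n = 5), with 4.70%, 5.85%, 5.38%, 5.30% and 8.04%. In parotid it was 5.79% ± 4.83 (n = 5), with 2.78%, 9.06%, 12.6%, 1.35% and 3.12%. In submandibular gland it was 4.76% ± 2.57 (n = 5), with 1.80%, 6.34%, 6.33%, 2.15% and 7.18%. The pancreas libraries were close together, whereas the highest parotid library was 9.37 times the lowest. Baboons 1 and 4 had the lowest submandibular values and were, with baboon 5, the low parotid libraries. With ATP8, ND3, ND4L and ND6 added, the means rose to 23.3% in liver, 17.5% in sublingual gland, 7.11% in pancreas, 6.90% in parotid and 5.73% in submandibular gland, in the same order.

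**Figure D1:**
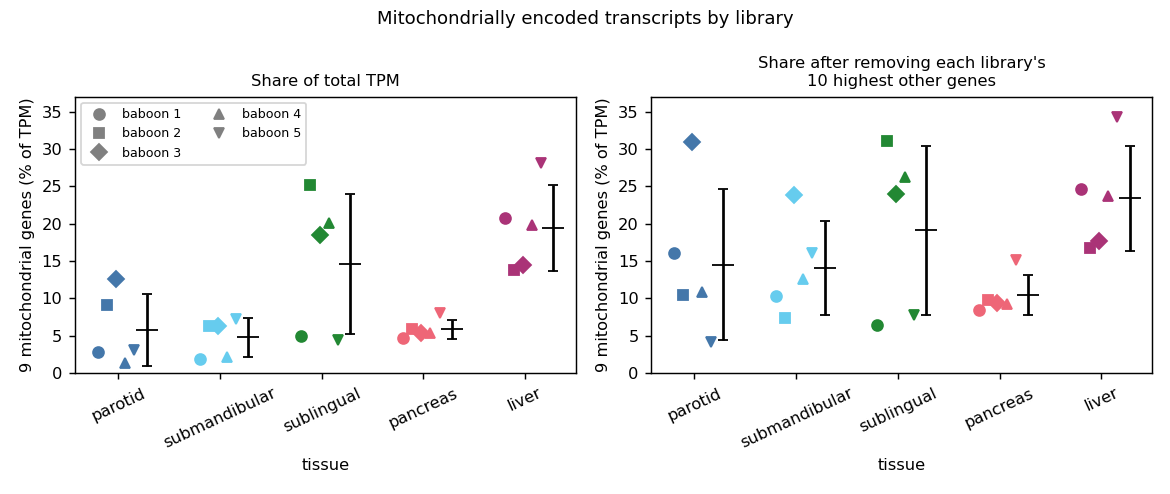
Share of TPM taken by the 9 mitochondrial genes, by tissue (x) and in percent (y), of the whole library (left) and after each library's 10 highest other genes were removed from the total (right). Each point is a library, its shape the animal, and bars are mean ± SD of 5 libraries. On the left no parotid, submandibular or pancreas library reaches the lowest liver library at 13.8%, while on the right the parotid and submandibular libraries of baboon 3, at 30.9% and 23.8%, lie among the liver libraries.

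Within animals, the share was lower in pancreas than in liver in 5 of 5 animals, by a mean of 13.5 percentage points (SD of the differences 5.05). It was lower in parotid than in liver in 5 of 5 animals as well (mean difference -13.6 points, SD 9.89), and in submandibular gland in 5 of 5 (-14.6 points, SD 6.38). None of these 3 tissues overlapped liver. Sublingual gland was lower than liver in 2 of 5 animals and higher in 3 (mean difference -4.77 points, SD 14.5), and the libraries overlapped. Parotid was lower than sublingual gland in 5 of 5 animals (-8.82 points, SD 8.07), submandibular gland in 4 of 5 (-9.85 points, SD 9.42), and both overlapped it. The order of the means was liver, sublingual gland, pancreas, parotid and submandibular gland. Each neighbour in that order overlapped the next, and no difference between neighbours exceeded the SD of its within-animal differences. No test was made of the share, because it is a sum over genes that were chosen with results of these data known.

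Facts on the whole series that touch these values are few. Read numbers are not known from TPM, so the precision of every value rests on the spread over 5 animals. The summed TPM of 6 hepatocyte markers was between 43938 and 76335 in liver and at most 1148 elsewhere, and that of 6 pancreatic acinar markers was between 65234 and 127100 in pancreas and at most 1830 elsewhere. The sum of 6 salivary acinar and duct genes did not separate the glands from the other organs. It was 479 to 279319 in sublingual gland, 938 to 16392 in submandibular gland and 1210 to 3545 in parotid. In pancreas that sum was 2127 to 4634, and in liver 321 to 2614. AQP5, LPO and KLK1 of this list were named after their values were seen. AQP5 and LPO were at most 4.52 and 7.05 TPM in pancreas and liver. They were at most 5.40 and 7.15 TPM in parotid of baboons 2 and 5, submandibular of baboon 2 and sublingual of baboons 2 and 4. In all other gland libraries they were at least 40.5 and 36.4 TPM. The rest of the list, such as KLK1 (1614 to 2136 TPM in pancreas), did not separate in this way. The parotid libraries of baboons 2 and 5, the submandibular library of baboon 5 and the sublingual library of baboon 2 stood apart by markers of fat, lymphocytes or skeletal muscle. Without these 4 libraries the mean shares were 11.96% in sublingual gland, 5.59% in parotid and 4.15% in submandibular gland. The submandibular library of baboon 2 was not left out. It had the highest lymphocyte and muscle sums of its gland (68.7 and 975 TPM) and an adipocyte sum of 2775 TPM. In bulk tissue, fewer cells of a type and less RNA per cell cannot be told apart.

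COX1 had the highest level of the 9 genes in 23 of 25 libraries, and ATP6 was highest in the other 2. COX1 is the subunit of cytochrome c oxidase that holds the site where oxygen is reduced. Its values in liver were 46575, 35388, 37943, 51707 and 72983 TPM in baboons 1 to 5 (48919 ± 14966, SD, n = 5). In sublingual gland they were 13665, 69844, 43369, 50148 and 14163 TPM (38238 ± 24241). The 3 high sublingual libraries lay within the range of liver and the other 2 within that of pancreas.

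In pancreas COX1 was at 10469, 14708, 14230, 12273 and 17616 TPM (13859 ± 2692). In parotid it was at 5589, 22544, 29284, 2532 and 9449 TPM (13879 ± 11506), and in submandibular gland at 4061, 14099, 13819, 4394 and 18811 TPM (11037 ± 6526). The means of parotid and pancreas were nearly equal, but the parotid libraries reached both below and above all pancreas libraries.

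The other complex IV subunits and ATP6 followed COX1 in level. COX2, which receives electrons from cytochrome c, had means of 29044 TPM in liver, 27104 in sublingual gland, 9582 in pancreas, 9205 in parotid and 7361 in submandibular gland. COX3, a core subunit without a metal site, ranged from 1954 TPM in the parotid library of baboon 4 to 41983 TPM in the liver library of baboon 5. ATP6 ranged from 2568 to 52827 TPM in the same 2 libraries. Its means were 35966 ± 10457 TPM in liver and 27926 ± 19190 TPM in sublingual gland (SD, n = 5 each).

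CYTB held rank 5 among the 9 genes in 25 of 25 libraries. In liver it was at 26792, 12127, 16607, 18303 and 21889 TPM, and in pancreas at 5371, 5780, 5542, 5732 and 8134 TPM. In sublingual gland it was at 4688, 18542, 13887, 17843 and 2331 TPM. The parotid values were 3684, 8524, 15365, 1798 and 2205 TPM, and the submandibular values 1982, 6294, 7400, 2835 and 7455 TPM. The liver and pancreas libraries did not overlap, and the sublingual library of baboon 5 was below all pancreas libraries.

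The complex I subunits were lower. ND4 had means between 2572 TPM in submandibular gland and 12104 TPM in liver, ND1 between 2249 and 8229 TPM, and ND2 between 2046 and 8578 TPM in the same 2 tissues. ND5 had the lowest level of the 9 genes in 25 of 25 libraries. It was at 3544, 1871, 1409, 2565 and 3072 TPM in liver and at 366, 568, 485, 455 and 461 TPM in pancreas. In sublingual gland it was at 419, 3435, 1284, 1468 and 196 TPM, in parotid at 337, 950, 709, 165 and 161 TPM, and in submandibular gland at 272, 710, 663, 235 and 501 TPM. Every liver library was above every pancreas, parotid and submandibular library for ND5, and the sublingual libraries ranged from below all pancreas libraries to nearly the highest liver library. On the TPM scale COX1 exceeded ND5 by a median factor of 25.9 over 25 libraries, with a range of 13.1 to 72.3.

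**Figure D2:**
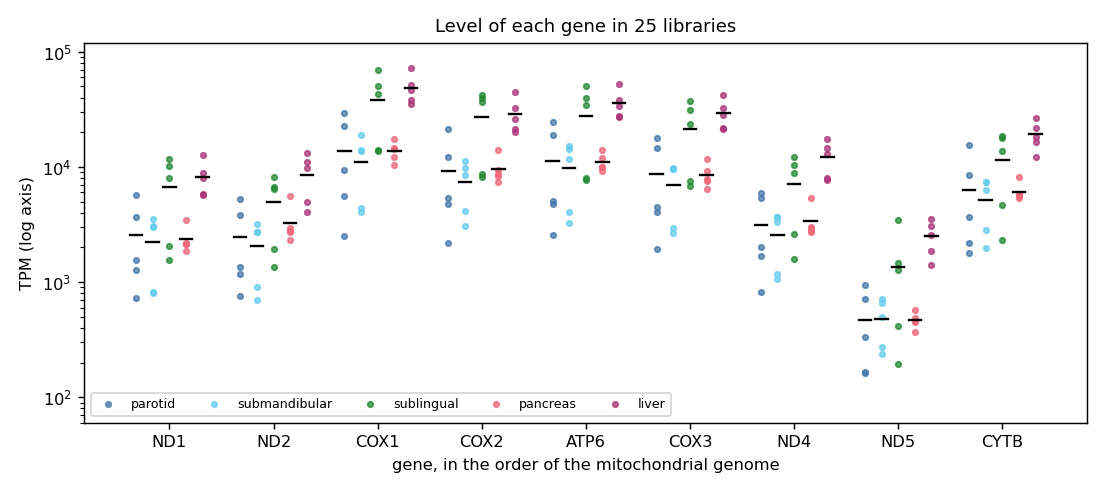
TPM (y, log axis) of each gene (x, in the order of the mitochondrial genome) in all 25 libraries. Points are libraries, coloured by tissue, and black lines are means of 5 libraries. COX1 and ATP6 are highest and ND5 lowest in all 5 tissues, and the sublingual points of COX1 split between the range of liver (3 libraries) and that of pancreas (2 libraries).

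To ask whether single genes differed between tissues beyond the spread over animals, the limma model, with terms for tissue and for animal, used log2(TPM + 1) of 14991 genes over 25 libraries. The model took 1 estimate of the spread per gene from all 5 tissues, so a gene had the same SE in every comparison. The spread itself differed between tissues: COX1 ranged 1.68-fold over the pancreas libraries and 11.6-fold over the parotid libraries. Calls required p under 0.05 after Benjamini-Hochberg adjustment over all genes and a log2 fold change of 1 or more in size. On this scale, 9 of 9 mitochondrial genes fell in parotid against liver, where 10.9% of all genes were called lower and 2.84% higher. Likewise 9 of 9 fell in submandibular gland against liver, where 13.9% of all genes were called lower and 2.61% higher. In pancreas against liver 7 of 9 fell, where 14.6% were called lower and 2.86% higher. Without the 4 libraries named above the counts were 9 in parotid, 9 in submandibular gland and 8 in pancreas, where 23.8%, 23.9% and 24.2% of all genes were called in either direction, against 13.8%, 16.5% and 17.5% with all libraries. In sublingual gland against liver 0 of 9 were called, where 9.52% of all genes were called lower and 5.93% higher.

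In parotid against liver the log2 fold changes lay between -2.71 and -1.99 (SE 0.53 to 0.61), with a median of -2.16, beside a median of 0.013 over all genes. ND5 had the lowest value (-2.71, SE 0.57, limma adjusted p = 0.0014), and COX1 was at -2.28 (SE 0.53, adjusted p = 0.00376). All 5 animals had less COX1 and ND5 in parotid than in liver. COX2 and ND2 were lower in 4 of 5 animals, the exception for both being baboon 3, an animal whose parotid held COX2 at 21484 TPM and whose liver held 20256 TPM. The parotid and liver libraries did not overlap for 6 of the 9 genes, against 7.82% of all genes that were lower without overlap. The count was 2 without baboon 1 and 1 without baboon 4, where 9.40% and 9.44% of all genes were called in either direction. With all libraries 13.8% were called. Without baboons 2, 3 and 5 the count was 9, 9 and 6, where 17.1%, 8.86% and 14.9% were called. It was 3 when no filter on low genes was applied, where 9.26% were called. Why the count moved was not tested.

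In submandibular gland against liver the values lay between -2.45 and -2.02, with a median of -2.18, beside -0.27 over all genes. ND5 was at -2.45 (SE 0.57, limma adjusted p = 0.00339) and ND4, a proton-pumping subunit of complex I, at -2.37 (SE 0.58, adjusted p = 0.00514). Each of the 9 genes was lower in 5 of 5 animals, and the libraries did not overlap for any of the 9, against 11.6% of all genes. The count was 1 without baboon 1 and 5 without baboon 4, where 10.2% and 10.5% of all genes were called in either direction. In the main fit 16.5% were called. The count was 4 with either TMM or median-of-ratios scaling, where 19.93% and 19.99% of all genes were called. Why the count moved was not tested.

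In pancreas against liver the values lay between -2.35 and -1.32, with a median of -1.77, beside -0.44 over all genes. ND5 had the lowest value (-2.35, SE 0.57, limma adjusted p = 0.00425). CYTB and ND2 were not called, at -1.61 (SE 0.57, adjusted p = 0.0529) and -1.32 (SE 0.61, adjusted p = 0.147). Each of the 9 genes was lower in pancreas in 5 of 5 animals, and 8 of 9 did not overlap, against 32.9% of all genes. The count was 0 of 9 with TMM or median-of-ratios scaling, where 18.4% and 18.3% of all genes were called in either direction. In the main fit 17.5% were called. The count was 1 without baboon 1, 1 without baboon 3, 2 without baboon 4 and 3 without baboon 5. All genes called were then 12.8%, 11.4%, 12.8% and 16.3%. The count was 1 with no filter and 5 without the replicate block, where 11.98% and 15.8% of all genes were called. With only pancreas and liver in the fit, so without the spread of the glands, it was 9. There 34.6% of all genes were called.

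In sublingual gland against liver the values lay between -1.42 and -0.38, with adjusted p from limma between 0.0995 and 0.708, and 1 of 9 genes, ND5, had an unadjusted p under 0.05. Between 2 and 4 of 5 animals had less of a given gene in sublingual gland. Without baboon 2, whose sublingual library was the highest, 1 of 9 genes was called lower, where 20.3% of all genes were called in either direction. With all libraries 15.4% were called. Without the 4 libraries named above 1 of 9 was also called lower, where 26.0% of all genes were called. The sublingual libraries of baboons 1 and 4, with oral epithelium markers, stayed in that fit.

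**Figure D3:**
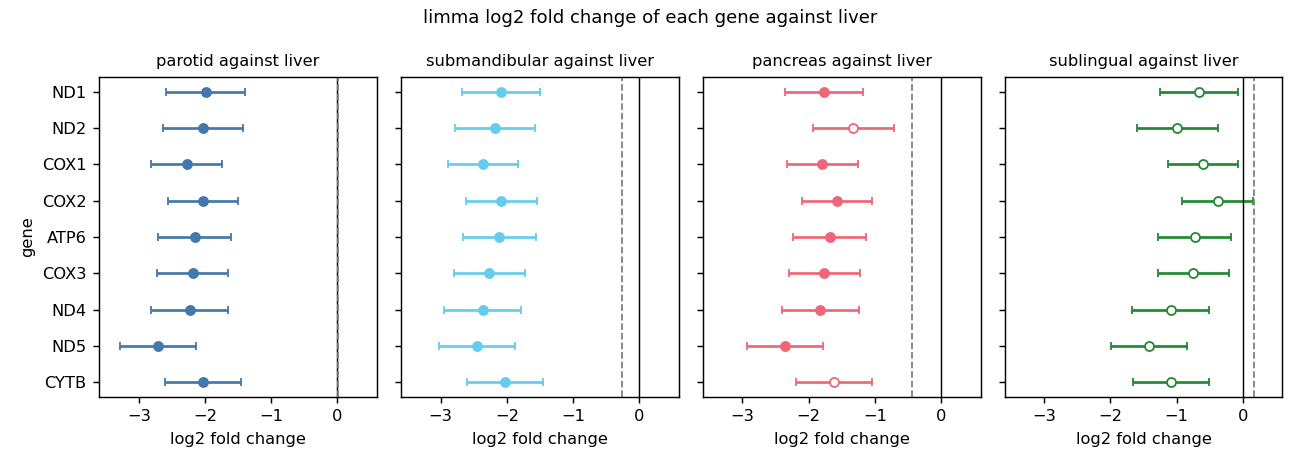
limma log2 fold change on the log2(TPM + 1) scale (x) of each of the 9 genes (y) in parotid, submandibular gland, pancreas and sublingual gland against liver. Points are estimates from 25 libraries, bars are SE, filled points were called and open points were not. Dashed lines are the medians of all 14991 genes. All 9 estimates are below 0 in each panel, and the sublingual estimates are nearest to 0.

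Parotid and submandibular gland were not told apart from pancreas, or from each other, by any of the 9 genes. In parotid against pancreas 0 of 9 were called (1.41% of all genes were higher and 2.4% lower), with values between -0.71 and -0.22 and 0 with an unadjusted p under 0.05. In submandibular gland against pancreas 0 of 9 were called (1.27% higher and 2.81% lower), with values between -0.86 and -0.10, also with 0 at an unadjusted p under 0.05. In parotid against submandibular gland the values lay between -0.26 and 0.15 with SEs of 0.53 to 0.61, and 0 of 9 were called, with 0 at an unadjusted p under 0.05 (0% of all genes were called in either direction).

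Sublingual gland had higher estimates than pancreas for all 9 genes, from 0.34 for ND2 to 1.19 for COX1 and COX2, but 0 of 9 were called by limma (6.97% of all genes were higher and 2.49% lower). Of the 9, 2 had an unadjusted p under 0.05. Against sublingual gland, parotid had estimates between -1.68 and -0.94 and submandibular gland between -1.76 and -0.94. In each of these comparisons 0 of 9 genes were called and 6 of 9 had an unadjusted p under 0.05. All genes called there after adjustment made up 0.02% higher and 0.0934% lower for parotid. For submandibular gland they made up 0.02% higher and 0.0467% lower. The share of all genes with an unadjusted p under 0.05 was not counted in any comparison.

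The medians of all genes shifted between tissues, and scaling the libraries to remove that shift changed the size of the mitochondrial differences. TMM scaling moved the median of all genes in pancreas against liver from -0.44 to 0.0099, and the median of the 9 genes from -1.77 to -1.02. Relative to all genes, the 9 genes were at -1.33 as deposited and -1.03 after scaling. The same relative values were -2.17 and -2.01 for parotid against liver, -1.91 and -1.66 for submandibular gland against liver, and -0.92 and -0.93 for sublingual gland against liver. For sublingual gland against pancreas they were 0.33 and 0.039, so after scaling the median of the 9 genes lay close to that of all genes.

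The mitochondrial share was set beside the share of the most abundant other genes in each library. The 10 highest genes outside the mitochondrial genome took between 13.6% and 87.5% of a library. In the parotid libraries of baboons 1 and 4 they took 82.7% and 87.5%, and in the submandibular libraries of the same animals 82.6% and 83.0%. These were the 4 libraries with the lowest mitochondrial shares, between 1.35% and 2.78%. In pancreas the 10 genes took 40.3% to 46.7%, and in liver 15.7% to 18.1%. Both shares are parts of the same total, and how far one set the other was not tested. The parotid library of baboon 5 and the sublingual library of baboon 1 had 3.12% and 4.96% with the 10 genes at 24.1% and 23.0%.

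With the 10 highest other genes removed from the total, the mitochondrial share was 23.4% ± 7.02 in liver, 19.1% ± 11.3 in sublingual gland, 14.5% ± 10.1 in parotid, 14.1% ± 6.31 in submandibular gland and 10.4% ± 2.67 in pancreas (SD, n = 5 each). Pancreas moved from the third to the lowest place. It remained lower than liver in 5 of 5 animals without overlap, whereas parotid and submandibular gland were lower than liver in 4 of 5 and overlapped it. The exception was baboon 3, whose parotid and submandibular libraries reached 30.9% and 23.8% against 17.6% in its liver.

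**Figure D4:**
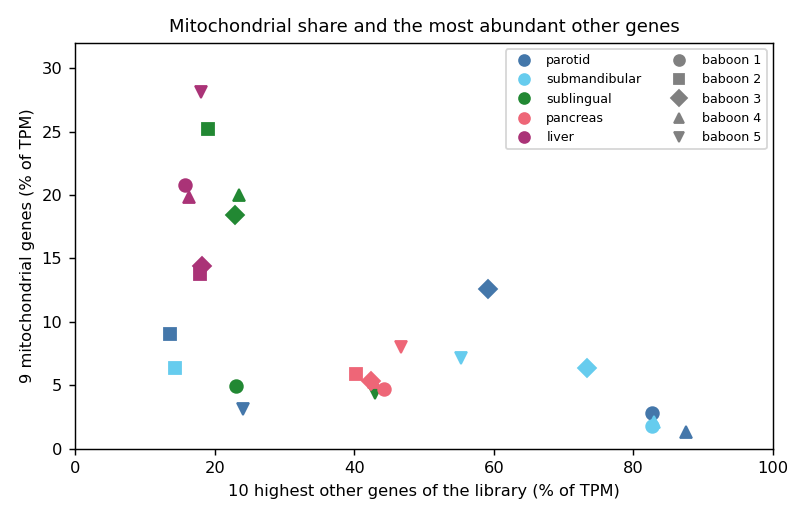
Share of TPM in the 9 mitochondrial genes (y) against the share in the 10 highest other genes of the same library (x), both in percent, for 25 libraries coloured by tissue, with the animal as shape. Both axes are parts of 1 total. Libraries with over 80% in 10 other genes all lie below 3% mitochondrial, and libraries under 25% on the x axis range from 3.12% to 28.1%.

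Markers of other cell types differed between libraries of the same gland, and their part in the mitochondrial share was not tested. In sublingual gland, 7 of 8 listed skeletal muscle genes were in the table. Their sum was 103230 TPM in the library of baboon 2, which had the highest mitochondrial share of the glands (25.2%), and 48.9 to 506 TPM in the remaining 4 libraries of this gland. All 7 were above 0 in each sublingual library. The libraries of baboons 3 and 4, with 18.5% and 20.02% mitochondrial, had muscle sums of 506 and 52.0 TPM. Of 5 stratified oral epithelium genes 4 were in the table, and their sum was 77038 TPM in baboon 1 (4.96% mitochondrial), 18583 TPM in baboon 4 (20.02%) and 261 to 352 TPM in the others. The sublingual library of baboon 5, with the lowest share (4.40%), had a salivary marker sum of 279319 TPM. Nearly all of that sum came from ZG16B (217252 TPM) and PIP (61330 TPM). In parotid, the library of baboon 3 had the highest share (12.6%), with an adipocyte sum of 64.5 TPM and a lymphocyte sum of 37 TPM. The library of baboon 2 held 5 of 5 adipocyte markers at a sum of 21274 TPM with a mitochondrial share of 9.06%, and that of baboon 5 held lymphocyte markers at a sum of 954 TPM with a share of 3.12%. In submandibular gland, the library of baboon 5 had the highest share (7.18%) and the highest adipocyte sum (6860 TPM, against 27.7 to 2775 TPM). The library of baboon 2 (6.34%) had an erythroid sum of 6014 TPM, nearly all from HBB (5996 TPM), and the lowest salivary sum, 938 TPM.

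Among themselves the 9 genes varied together. Across 25 libraries the correlation of log2 values between pairs of the 9 genes had a median of 0.965 over 36 pairs, from 0.896 for ND2 and ND5 to 0.991 for COX3 and ATP6. After subtracting tissue means the median was 0.952. These are descriptions, and the genes share their libraries and the denominator of each.

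Their proportions were steadier than their levels. The sum of the 9 genes was made up of COX1 at 24.5% ± 3.12, ATP6 at 18.9% ± 1.70, COX2 at 16.4% ± 1.97, COX3 at 14.8% ± 0.84 and CYTB at 10.1% ± 2.10 (SD, n = 25 libraries). ND4 made up 5.59% ± 0.79, ND2 4.39% ± 0.99, ND1 4.38% ± 0.55 and ND5 0.985% ± 0.323. COX3 was the steadiest, at 12.7% to 16.1% of the sum, a range of 1.26-fold. ND5 varied most, from 0.446% to 1.70%, a range of 3.82-fold.

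Sublingual gland differed in make-up from the other tissues. The 3 cytochrome oxidase genes made up 60.5% ± 3.51 of the sum there (SD, n = 5), with 57.7% as the lowest library. They made up 55.4% ± 1.65 in liver, 54.5% ± 2.15 in pancreas and 53.5% ± 1.36 in submandibular gland, and no library of these tissues overlapped the sublingual libraries. In parotid they made up 54.4% ± 4.68, up to 61.8% in baboon 5, and sublingual gland was higher in 5 of 5 animals. CYTB went the other way, at 7.71% ± 1.61 in sublingual gland against 10.5% ± 0.62 in pancreas, 11.2% ± 1.28 in submandibular gland and 11.0% ± 2.73 in parotid. In liver CYTB made up 10.05% ± 2.09. It was lower in sublingual gland in 5 of 5 animals in each of these 4 comparisons, without overlap against pancreas and submandibular gland.

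ND2 and ND5 set pancreas and liver apart in a smaller way. ND2 exceeded ND1, its neighbour on the genome, in pancreas by a factor of 1.35 ± 0.15, with 1.24 as the lowest library. The factor was 0.796 ± 0.133 in sublingual gland, 0.932 ± 0.098 in submandibular gland, 0.962 ± 0.075 in parotid and 1.01 ± 0.24 in liver (SD, n = 5 each). The highest liver library, also at 1.24 after rounding, was slightly above the lowest pancreas library, and the glands did not reach pancreas. ND5 made up 1.29% ± 0.28 of the sum in liver and 0.816% ± 0.152 in pancreas, lower in pancreas in 5 of 5 animals without overlap. It made up 0.816% ± 0.339 in sublingual gland, 0.912% ± 0.347 in parotid and 1.09% ± 0.289 in submandibular gland. Each of these glands overlapped liver. The proportions were not tested, and how the quantification divided reads between overlapping genes and nuclear copies is not known.

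**Figure D5:**
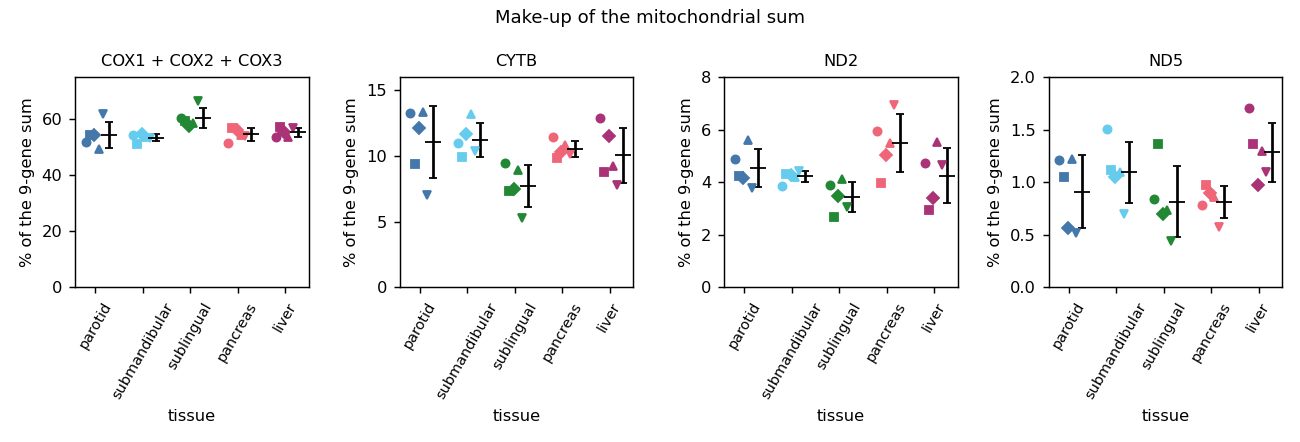
Percent of the 9-gene sum (y) contributed by the 3 cytochrome oxidase genes together, CYTB, ND2 and ND5, by tissue (x). Points are libraries with the animal as shape, and bars are mean ± SD of 5 libraries. Sublingual gland is highest for cytochrome oxidase at 60.5% and lowest for CYTB at 7.71%, pancreas is highest for ND2 at 5.49%, and liver is highest for ND5 at 1.29%.

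The log2 values of the 4 mitochondrial genes outside the list correlated with the mean of the 9 genes at 0.981 for ND4L, 0.979 for ATP8, 0.947 for ND6 and 0.904 for ND3 over 25 libraries. Against liver, 4 of 4 were called lower in parotid by limma, 3 of 4 in submandibular gland, 3 of 4 in pancreas and 0 of 4 in sublingual gland. The gene not called in submandibular gland and pancreas was ND3, at -1.62 (adjusted p = 0.0537) and -0.92 (adjusted p = 0.308). ND3 also had its highest mean in sublingual gland, 8142 ± 4543 TPM against 7111 ± 3386 TPM in liver (log2 fold change 0.086, limma adjusted p = 0.949), unlike the 9 genes, which had theirs in liver. ND6, the light-strand gene, lies against ND5 and exceeded it by a median factor of 2.16. Whether the counting used strand is not given in the sources used here, so reads of ND6 and of antisense RNA there cannot be told apart.

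The nuclear genes of the respiratory chain were measured beside the mitochondrial ones, since each complex but complex II is built from both genomes. Of 85 listed nuclear genes 26, among them all 9 of complex III, were not in the table and were not analysed here. Of complex IV only 3 of 16 listed genes were in the table. The 59 genes present were mostly of complex I (36) and complex V (16). Their summed share was 1.23% ± 0.13 in liver, 1.73% ± 0.77 in sublingual gland, 0.775% ± 0.599 in parotid, 0.730% ± 0.488 in submandibular gland and 0.507% ± 0.046 in pancreas (SD, n = 5 each). In pancreas against liver 28 of 59 fell and 0 rose by limma, with a median of -1.30, beside -0.44 over all genes, of which 14.6% fell and 2.86% rose. With TMM scaling 9 were called lower, where 18.4% of all genes were called in either direction. NDUFB8, an accessory subunit of complex I, fell by 2.12 (SE 0.48, limma adjusted p = 0.00197), and ATP5PD, a stalk subunit of ATP synthase, fell by 2.11 (SE 0.41, adjusted p = 0.000497).

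In parotid and submandibular gland against liver 15 and 16 of the 59 nuclear genes fell and 0 rose, with medians of -1.02 and -1.03, beside 10.9% and 13.9% of all genes that fell. With TMM scaling 14 and 3 were called lower, where 19.8% and 19.9% of all genes were called in either direction. ATP5PD had the lowest value in both, -2.10 in parotid (SE 0.41, limma adjusted p = 0.000641) and -2.09 in submandibular gland (SE 0.41, adjusted p = 0.000615). In sublingual gland against liver 1 fell, SDHA of complex II (-1.28), and 1 rose, ATP5F1E of ATP synthase (1.42). In sublingual gland against pancreas 29 of 59 nuclear genes rose and 0 fell, with a median of 1.46, beside 0.63 over all genes, of which 6.97% rose. With TMM scaling 2 were called higher, where 10.9% of all genes were called in either direction. COX8A, a small subunit of complex IV, had the highest value (2.11, SE 0.48, limma adjusted p = 0.00733). In that comparison 0 of the 9 mitochondrial genes were called, and the difference between the 2 groups of genes was not tested.

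The mitochondrial sum relative to the sum of these 59 nuclear genes was 1608% ± 559 in liver, 1146% ± 153 in pancreas, 925% ± 758 in sublingual gland, 918% ± 838 in parotid and 719% ± 365 in submandibular gland (SD, n = 5 each). On this scale liver was higher than each other tissue in 4 of 5 animals, and all tissues overlapped it. The 3 high sublingual libraries no longer formed a group: they were at 917%, 800% and 2199% in baboons 2, 3 and 4, so that of these only baboon 4 lay within the range of liver.

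Genes that copy, transcribe and process mitochondrial DNA and RNA mostly did not pass the test. Of 33 measured, 5 fell in pancreas against liver, 5 in submandibular gland, 2 in parotid and 2 in sublingual gland, and 0 rose. Of all genes, 14.6%, 13.9%, 10.9% and 9.52% fell in the same comparisons, so the counts were near or below the background. POLRMT, the RNA polymerase of mitochondria, fell in all 4 comparisons. It was at 15.1 ± 3.48 TPM in liver and at 3.17 ± 0.57 TPM in pancreas (-1.93, SE 0.42, limma adjusted p = 0.00136), and its log2 value was -1.54 in parotid, -1.54 in sublingual gland and -1.89 in submandibular gland. HSD17B10, a subunit of the enzyme that cuts mitochondrial transfer RNAs from their precursors and also an enzyme of isoleucine breakdown, also fell in all 4, with log2 values from -3.74 in pancreas to -3.28 in sublingual gland. TFAM, which packages mitochondrial DNA and starts its transcription, was chosen after its values were seen. It was at 7.64 ± 4.24 TPM in liver and 3.75 ± 2.53 TPM in pancreas, and was not called in any comparison with liver (limma adjusted p from 0.359 to 0.916).

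Of 10 tested regulators of mitochondrial biogenesis, 3 fell in pancreas against liver and 2 in each gland against liver, with 0 higher, beside the same shares of all genes. PPARA, a fatty acid sensor of liver, and SIRT3, a mitochondrial deacetylase, fell in all 4 comparisons. PPARGC1A, a coactivator of mitochondrial genes, fell in pancreas, from 1.48 ± 0.32 to 0.193 ± 0.065 TPM (log2 value -1.05, SE 0.30; adjusted p = 0.0162 by limma), and was at 1.62 ± 1.27 TPM in sublingual gland. Of 11 mitochondrial translation factors, 1 fell in pancreas against liver (TSFM), 1 in submandibular gland (OXA1L) and 0 in parotid and sublingual gland, near or below those shares.

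Among 4213 named genes averaging 10 TPM or more, the 5 whose log2 values were most like the mean of the 9 genes over 25 libraries were ZNF768 (Pearson r = 0.845), NUCKS1 (0.819), NUDT7 (0.818), HSDL2 (0.817) and TIAF1 (0.816). All 5 had their highest mean in liver, such as 208 ± 103 TPM for NUCKS1 and 30.9 ± 7.60 TPM for NUDT7. The 5 most unlike were SEC11C (r = -0.803), BHLHA15 (-0.792), GMDS (-0.767), TMED3 (-0.744) and PYCR1 (-0.705). SEC11C is a subunit of the signal peptidase, TMED3 a protein that sorts cargo in the early secretory pathway, and BHLHA15 a transcription factor of secretory cells. BHLHA15 was at 72.2 ± 39.7 TPM in pancreas, 44.7 ± 29.4 TPM in parotid and 2.31 ± 0.65 TPM in liver (SD, n = 5 each). The correlations describe the same 25 libraries and share their totals.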

How the data were processed

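Per the labels' protocols, RNA was isolated from 3 sections of 30 µm per sample, treated with DNase and sequenced as paired reads of 150 bases on an Illumina HiSeq. The series text calls the libraries mRNA libraries. The authors deposited 1 table of TPM values per gene, and its name states that they are kallisto abundances. The submitters' processing notes also name FastQC, MultiQC, cutadapt, HISAT2, SAMtools, featureCounts and DESeq2. The kallisto index, the genome build and versions are not given in the sources used here. All 21287 identifiers matched symbols of the RefSeq table of Panubis1.0, which served for names and gene order only.

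Animal numbers in the titles pair the tissues. Deviations from tissue means correlated at 0.161 on average within animals. By tissue pair the value ran from -0.046 (sublingual gland and pancreas) to 0.552 (parotid and submandibular gland). Between animals it was -0.035, a value that subtracting the tissue means largely sets. limma 3.58.1 in R 4.3.3 (eBayes with a trend) was fitted to log2(TPM + 1) of genes whose mean reached 1 TPM in some tissue, with tissue and animal as terms, and p-values were adjusted over 14991 genes in each of 10 tissue pairs. The fit was tested on simulated data in which a gene had the same spread in all tissues, so unequal spreads were not covered. Shares were computed with Python 3.11.15 and pandas 2.3.3. Alternatives were no replicate block, only the compared tissues, TMM and median-of-ratios scaling, no filter, a pseudocount of 0.1, no fold threshold, other denominators, leaving out each animal, and leaving out 4 libraries (parotid of baboons 2 and 5, submandibular of baboon 5 and sublingual of baboon 2).

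The members, gene lists and libraries to leave out were chosen with earlier results of these data known. Named were all 9 genes, list members with the highest or lowest called fold change, and the 5 named genes (mean of at least 10 TPM) most and least like the mean of the 9. Other names are stated as chosen after their values were seen.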

Additional observations from a re-analysis of the deposited data

Results flagged for a closer look

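A library was picked out where its gap to the nearest of the 5 libraries of its tissue was large against the whole range (Dixon's criterion at 95%), in 140 groups of values. Of these groups, 15 held a value that stood out, 8 of them in the pancreas library of baboon 5, and chance alone flags about 1 group in 20. In the pancreas library of baboon 5, 6 genes stood above the other 4 libraries: CYTB at 8134 TPM, ND1 at 3486, ND2 at 5584, ND4 at 5339, ND3 at 7108 and ND4L at 5231 TPM, where the next highest were 5780, 2184, 2921, 3031, 3324 and 3476 TPM. The same library stood apart in its share without the 10 highest other genes (15.1%, next 9.80%) and in its percent of the nuclear respiratory chain sum (1417.5%, next 1096%). These values overlap in what they measure and are not 8 independent findings. The parotid library of baboon 3 was at 2368% of the nuclear sum, with 882% as the next.

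The remaining cases concern the make-up of the 9-gene sum. In the parotid library of baboon 2, COX2 was low at 13.6% of the sum (next 16.1%) and COX3 high at 16.1% (next 14.6%). In sublingual gland, COX3 was low at 12.7% in baboon 3 and ND4 low at 3.59% in baboon 5. In the liver library of baboon 1, COX1 was low at 22.4% and ATP6 low at 16.2%.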

How the results depend on the processing

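No member changed direction against liver in parotid, submandibular gland or pancreas under any alternative run. The calls were less stable. With TMM scaling the number of the 9 genes called lower than in liver was 0 in pancreas and 4 in submandibular gland, and median-of-ratios scaling gave 0 and 4, while the number in parotid was 8 under both. With TMM scaling 18.4%, 19.9% and 19.8% of all genes were called in pancreas, submandibular gland and parotid. In the main fit the shares were 17.5%, 16.5% and 13.8%. With no filter on low genes the number of the 9 genes called was 1 in pancreas and 3 in parotid, where 11.98% and 9.26% of all genes were called. Leaving out 1 animal gave 1 to 5 genes in pancreas, 1 to 9 in parotid, 1 to 9 in submandibular gland and 0 to 1 in sublingual gland. The share of all genes called in either direction moved too, to 11.4% to 18.2% in pancreas, 8.86% to 17.1% in parotid and 10.2% to 24.2% in submandibular gland. In sublingual gland it was 10.2% to 20.3%. Without the 4 libraries left out together the sublingual count was 1, where 26.0% of all genes were called. Without the replicate block the counts were 5 in pancreas, 9 in parotid and 9 in submandibular gland, where 15.8%, 12.4% and 14.4% of all genes were called. With only the compared tissue and liver in the fit the counts were 9 in pancreas and 9 in parotid. All genes called in either direction were then 34.6% and 13.5%. The cause of these changes was not tested. The counts of 0 in the 6 comparisons without liver stayed at 0 in every alternative run. In parotid against submandibular gland single genes changed sign in 33 cases over 8 alternatives, and the median of the 9 genes ranged from -0.26 to 0.37. In sublingual gland against pancreas 6 such cases came from TMM and median-of-ratios scaling. With the 10 highest other genes removed from the total, the share was 14.5% in parotid, 14.1% in submandibular gland and 10.4% in pancreas. As percent of the nuclear respiratory chain sum it was 918% in parotid, 719% in submandibular gland, 925% in sublingual gland, 1146% in pancreas and 1608% in liver. Leaving out 1 animal moved the mean share to 4.08% to 6.90% in parotid, 4.15% to 5.50% in submandibular gland, 11.96% to 17.2% in sublingual gland, 5.31% to 6.14% in pancreas and 17.2% to 20.8% in liver. Depth is unknown, so counting error was not assessed.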

Other observations

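LOC116274910, a gene without a name in the table and placed on a nuclear chromosome by the RefSeq gene table, was picked out after its values were seen because it was the non-mitochondrial gene most like the 9 genes. Its log2 values correlated with their mean at 0.911 over 25 libraries, and at 0.941 after subtracting tissue means. It was at 21291 ± 16795 TPM in sublingual gland, 9884 ± 3351 in liver, 3971 ± 3695 in parotid, 3853 ± 1251 in pancreas and 2711 ± 1560 in submandibular gland (SD, n = 5 each). In the sublingual library of baboon 2 it was the highest gene outside the mitochondrial genome, at 3.63% of TPM. Its highest mean was in sublingual gland, as was that of the mitochondrial gene ND3 (8142 TPM). Whether the locus holds a nuclear copy of mitochondrial sequence was not tested, so whether its TPM counts reads of its own transcripts is not known.

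Baboon 5, the male, had the highest mitochondrial share of the 5 animals in liver (28.1%), pancreas (8.04%) and submandibular gland (7.18%). It had the median share in parotid (3.12%) and the lowest in sublingual gland (4.40%). Its parotid and submandibular libraries are among the 4 left out in 1 alternative.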
